A study of Rattus norvegicus with 6 samples.

Results

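The metabotropic glutamate receptors described here are the products of 7 genes, Grm2 to Grm8, which were taken by their symbols from a deposited table of 17366 rat transcripts, 1 transcript per symbol; all 7 were found. The RNA came from cultured retinal ganglion cells (RGCs), the neurons that carry the output of the retina, of P5 Sprague Dawley rats. Cultures of both groups were kept 10 days, as the labels state, and were then given either Chrdl1 (chordin-like 1, a secreted binder of bone morphogenetic proteins) at 1 µg/ml or its vehicle of 0.1% BSA and 4 mM HCl, for 12 h. Each group had 3 libraries, and every Chrdl1 library shares a title code with 1 vehicle library: RGCControl052416 and RGCtreat052416 are called pair A, RGCControl092016 and RGCtreat092016 pair B, and RGCControl092716 and RGCtreat092716 pair C. The labels explain neither the code nor whether libraries of a group are separate animals or cultures, and the p-values therefore describe only the spread among these libraries, which may be technical.

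Metabotropic glutamate receptors are G-protein-coupled receptors that bind glutamate at a large extracellular domain and work as dimers. They fall into 3 groups. Group I, here Grm5, signals through Gq to phospholipase C, and groups II (Grm2 and Grm3) and III (Grm4, Grm6, Grm7 and Grm8) signal through Gi/o, which holds down adenylyl cyclase. In the retina Grm6 is known as the receptor by which ON bipolar cells, the interneurons that pass the response to light onset from photoreceptors to RGCs, detect photoreceptor glutamate. Grm4, Grm7 and Grm8 are known mainly as presynaptic receptors that restrain transmitter release.

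In the labels the extraction protocol names visual cortex, while the other fields name RGC cultures. Of 12 RGC markers listed, 11 were used. They summed to 2918 to 3451 FPKM in vehicle and 2711 to 3456 FPKM in Chrdl1 libraries, led by Sncg (gamma-synuclein) and Gap43 (a growth cone protein). FPKM scales a transcript's fragments by its length and by the library's read total, so levels of different genes can be set side by side. Read totals, recovered from the low values, ran from 14546600, in the vehicle library of pair B, to 26551800. Markers of other retinal cells were present at lower levels and were highest in pair C for several lists, as given below beside Grm6.

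Upstream sequence of the group III members Grm6, Grm7 and Grm8 is shown here because group III makes up nearly all of the family's signal. Grm6 also spanned 3.15 between the means of the title codes on the log2(FPKM + 1) scale, where the other members spanned at most 0.66. RefSeq's promoter table, on build GRCr8, held 4 of the 7 members: Grm5, Grm6, Grm7 and Grm8. Grm4, also of group III, was not in it and was not searched. The 250 bases before the RefSeq start site are printed 5′ to 3′ on the gene's strand, with CG dinucleotides in capitals. They lie at chr10:35668753-35669002 (+ strand) for Grm6, chr4:145286476-145286725 (+ strand) for Grm7 and chr4:57687507-57687756 (- strand) for Grm8.
Grm6: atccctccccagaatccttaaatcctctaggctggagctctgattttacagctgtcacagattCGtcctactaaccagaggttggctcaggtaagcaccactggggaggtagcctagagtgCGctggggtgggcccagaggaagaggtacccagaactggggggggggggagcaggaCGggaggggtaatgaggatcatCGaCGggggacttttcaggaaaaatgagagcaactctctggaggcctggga
Grm7: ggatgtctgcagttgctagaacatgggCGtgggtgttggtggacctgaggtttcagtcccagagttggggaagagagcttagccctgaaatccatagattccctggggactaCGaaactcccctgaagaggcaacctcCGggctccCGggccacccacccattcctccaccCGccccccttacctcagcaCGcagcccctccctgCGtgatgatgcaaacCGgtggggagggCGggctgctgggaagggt
Grm8: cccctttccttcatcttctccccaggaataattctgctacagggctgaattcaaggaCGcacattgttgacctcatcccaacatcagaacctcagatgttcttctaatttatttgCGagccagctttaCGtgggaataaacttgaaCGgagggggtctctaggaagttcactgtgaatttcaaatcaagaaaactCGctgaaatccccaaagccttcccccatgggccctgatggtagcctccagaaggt
Grm7 has 9 CG dinucleotides in this window, and Grm6 and Grm8 have 5 each. The median of all 33469 promoters in the table is 5. The motif TAATCC, the core bound by the retinal factors CRX and OTX2, was searched on both strands and was in 6.34% of all promoters of this length. It was in none of the 4 member windows, and it was in those of Trpm1 and Nyx, genes of the ON bipolar cell response to glutamate. A match describes the letters of the window only.

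Grm7, Grm4 and Grm8 were the receptors above 1 FPKM in every library. Grm7 (NM_031040, chromosome 4, 142452616 to 143367578 on rn6, + strand, 3405 bases of transcript) was highest of the 7 in pairs A and B. It is the low-affinity receptor of presynaptic active zones. In the order A, B, C its vehicle libraries held 10.5, 10.0 and 7.80 FPKM, and its Chrdl1 libraries 10.8, 11.3 and 7.55 FPKM. Both libraries of pair C were below the other 4, and the groups overlapped. Its means were 9.42 ± 1.43 FPKM (SD, n = 3) in vehicle and 9.87 ± 2.02 FPKM (n = 3) in Chrdl1 libraries, from 496 to 877 reads per library.

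Grm4 (NM_022666, chromosome 20, 6745682 to 7094630, - strand, 3269 bases) came second among these. It encodes another presynaptic group III receptor. In the same order vehicle libraries were at 5.86, 5.36 and 5.42 FPKM and Chrdl1 libraries at 6.05, 5.39 and 4.74 FPKM. The lowest and the highest library were both treated with Chrdl1, and the groups overlapped. The span of Grm4 in the table also contains Ppil1 and Mtch1 on the same strand, at mean levels of 29.8 and 218 FPKM; the table gives no exons, and whether reads of these genes entered the Grm4 value was not tested.

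Grm8 (NM_022202, chromosome 4, 54474663 to 55399118, - strand, 2781 bases) was lower still. It encodes a presynaptic receptor of high glutamate affinity. Its vehicle libraries (A, B, C) were at 1.997, 1.68 and 1.99 FPKM and its Chrdl1 libraries at 2.003, 2.15 and 2.21 FPKM. All 3 Chrdl1 libraries were above all 3 vehicle libraries, but in pair A by 0.0029 on the log2(FPKM + 1) scale, from 136 and 130 reads in the vehicle and Chrdl1 libraries. The microRNA gene Mir592, which lies within it, was listed at 0 in all 6 libraries.

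Grm6 differed between title codes rather than between treatments. Grm6 (NM_022920, chromosome 10, 36345939 to 36360665, + strand, 4412 bases) was at 0.574 FPKM in pair A, 0.374 in pair B and 11.3 in pair C with vehicle, and at 0.553, 0.555 and 12.7 FPKM with Chrdl1. Both libraries of pair C were high, with 1327 and 1360 reads, and the other 4 libraries were low, with 24 to 62 reads. The groups overlapped, at 0.374 to 11.3 FPKM in vehicle and 0.553 to 12.7 FPKM in Chrdl1 libraries. The mean of pair C was 23.4 times the mean of the other libraries, so its group means of 4.09 ± 6.27 FPKM in vehicle and 4.62 ± 7.03 FPKM in Chrdl1 libraries (SD, n = 3 each) describe no library.

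The remaining members were low. Grm5 (NM_017012, chromosome 1, 151218929 to 151783392, + strand, 3908 bases) encodes a receptor held near postsynaptic sites by Homer scaffolds. It was at 0.345, 0.229 and 0.771 FPKM in vehicle and 0.340, 0.291 and 1.25 FPKM in Chrdl1 libraries, in the order A, B, C, from 13 to 118 reads. Both libraries of pair C were again above the other 4, at 3.35 times their mean.

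Grm3 (NM_001105712, chromosome 4, 21317695 to 21560490, + strand, 3376 bases) encodes a group II receptor of neurons and glia. It was at 0.157, 0.163 and 0.156 FPKM in vehicle and 0.203, 0.479 and 0.269 FPKM in Chrdl1 libraries. All 3 Chrdl1 libraries were above all 3 vehicle libraries. These values rest on 8 to 14 reads in vehicle and 16 to 37 in Chrdl1 libraries. Only in pair B were the 95% exact Poisson intervals of the libraries apart, 0.0703 to 0.321 FPKM in vehicle against 0.337 to 0.661 FPKM in Chrdl1; they cover counting error only and compare those libraries.

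Grm2 (NM_001105711, chromosome 8, 115344999 to 115358046, - strand, 4572 bases), the other group II receptor, was lowest. Vehicle libraries held 0.0980, 0.0150 and 0.148 FPKM and Chrdl1 libraries 0.150, 0.0770 and 0.0810 FPKM. With 1 to 18 reads per library, no order of its libraries could be read.

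**Figure D1:**
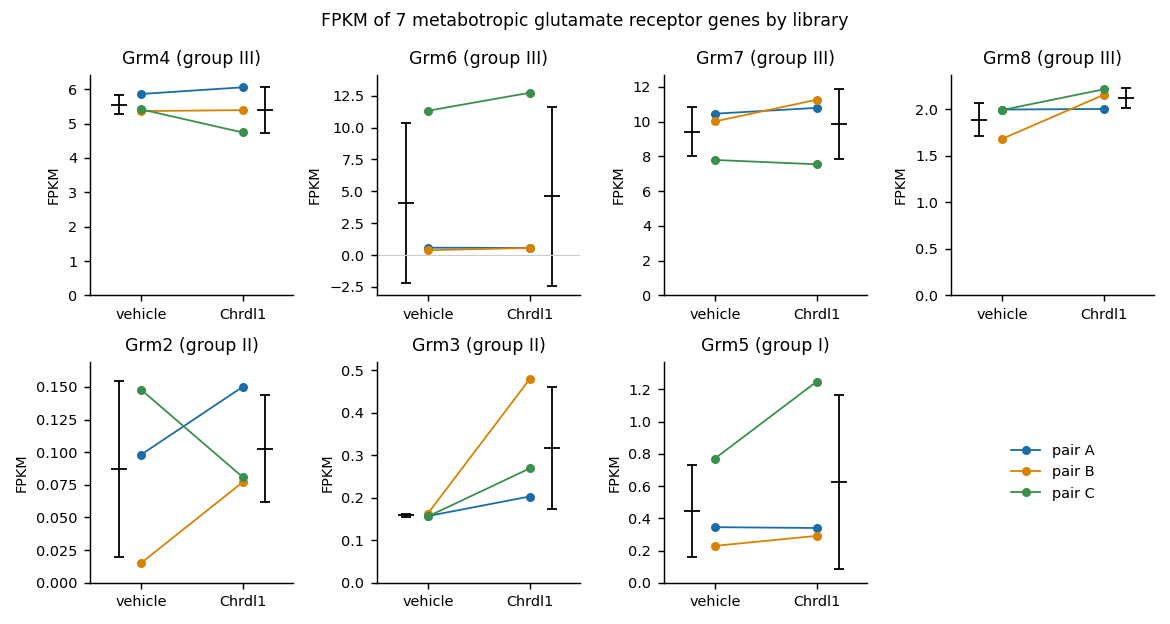
FPKM (vertical axis, linear) of the 7 receptor genes by treatment; a line connects each vehicle library to the Chrdl1 library of its pair, and black bars give the mean ± SD (n = 3). Grm6 stands at 11.3 and 12.7 FPKM in pair C and at most 0.574 FPKM elsewhere, while Grm7 runs from 7.55 to 11.3 FPKM, with pair C lowest.

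Ordered by mean FPKM over the 6 libraries, the members ran Grm7 (9.65), Grm4 (5.47), Grm6 (4.35), Grm8 (2.01), Grm5 (0.537), Grm3 (0.238) and Grm2 (0.0948). Grm7 was above Grm4, Grm8 above Grm5 and Grm3 above Grm2 in 6 of 6 libraries, with ranges that did not overlap. The mean of Grm6 lay between those of Grm4 and Grm8, but its level did so in no library: it was above Grm4 and Grm8 only in the 2 libraries of pair C, and below both in the other 4. In pair C it was the highest of the 7. Grm5 and Grm3 overlapped, with Grm5 higher in 5 of 6 libraries. No test was made of this order, since libraries that share a code are not independent.

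Group III receptors made up 94.5% to 97.7% of the summed FPKM of the 7 genes in each library. In pairs A and B, Grm7 gave 53.7% to 56.1% of the sum, Grm4 26.7% to 30.1%, Grm8 9.42% to 10.7% and Grm6 2.10% to 2.95%. In pair C Grm6 gave 41.0% and 44.2%, and Grm7 28.2% and 26.2%, in the vehicle and Chrdl1 libraries. The sum without Grm6 was 16.3 and 16.1 FPKM in pair C and 17.5 to 19.7 FPKM in the others. The group III share was 96.9% ± 0.806 in vehicle and 95.6% ± 1.06 in Chrdl1 libraries (SD, n = 3 each), a difference of -1.31 percentage points (exact permutation p = 0.2, two-sided, where 0.1 is the smallest p that 3 against 3 allow). It was lower with Chrdl1 in all 3 pairs, by -1.91 to -0.370 points (Chrdl1 minus vehicle), with an exact sign-flip p of 0.25, the lowest that 3 pairs allow.

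**Figure D2:**
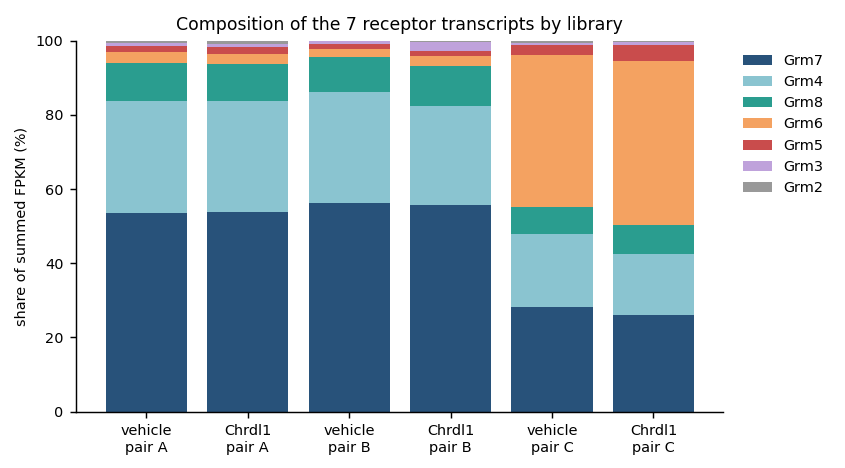
Share of the summed FPKM of the 7 receptor genes (vertical axis, percent) in each library, 1 bar per library and 1 colour per gene. Grm6 takes 41.0% and 44.2% in pair C and at most 2.95% in the other libraries.

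Chrdl1 against vehicle was the contrast the series was designed for, and it called no metabotropic receptor. Of the 7 members, 3 (Grm4, Grm7 and Grm8) passed the filter of at least 1 FPKM in at least 3 libraries. The other 4 were read from the same fit without the filter. With limma on log2(FPKM + 1), 0 of the 3 and 0 of the 7 members were called at an adjusted p under 0.05, where 0% of the 10390 filtered and 0% of the 14171 unfiltered transcripts were. At an unadjusted p under 0.05 there were 18 transcripts with the filter and 101 without, and 0 of the members. These counts depend on the model: with the title code as a block they were 535 and 585, Grm3 being among the latter. Limma voom on the recovered reads also called 0 with the filter. It had 2 at an unadjusted p under 0.05 without the block and 498 with it.

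The log2 fold change of FPKM + 1, Chrdl1 minus vehicle, was 0.052 ± 0.18 (SE) for Grm7, with a 95% interval from -0.38 to 0.49. Grm4 was at -0.038 ± 0.14, from -0.36 to 0.29. Grm8 was at 0.11 ± 0.15, from -0.25 to 0.47. All 3 had a limma adjusted p of 0.9998, and these intervals leave room for changes of that size in either direction. They include the spread between pairs. With the title code as a block they were narrower: -0.14 to 0.24 for Grm7, -0.26 to 0.18 for Grm4 and -0.15 to 0.38 for Grm8. Grm7 and Grm4 were higher with Chrdl1 in pairs A and B and lower in pair C, and Grm8 was higher in all 3 pairs, by 0.0029, 0.23 and 0.10 on the log2 scale.

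Among the members below the filter, Grm6 had a log2 fold change of 0.11 ± 1.18, an interval from -2.77 to 2.98 that spans the distance between pairs. With the title code as a block the SE fell to 0.10 and the interval ran from -0.15 to 0.36. Within pairs A, B and C the Grm6 difference was -0.019, 0.18 and 0.16, against a range of 3.15 between the means of the codes. Grm5 was at 0.14 ± 0.25, and its difference was -0.0054, 0.071 and 0.34 in pairs A, B and C. Grm2 was at 0.022 ± 0.059. The pseudocount of 1 compresses changes at such levels.

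Grm3 was the member nearest to a change. Its log2 fold change was 0.18 ± 0.082, with an interval from -0.021 to 0.38 (limma unadjusted p = 0.0710, adjusted p = 1). It was higher in all 3 pairs, by 0.056, 0.35 and 0.13. With the block the interval ran from 0.0068 to 0.35 (limma unadjusted p = 0.0441, adjusted p = 0.882), so it was not called. Without the block, a filter of 0.1 FPKM raised the SE to 0.12 (limma unadjusted p = 0.174). Quantile normalization gave 0.19 ± 0.13 (limma unadjusted p = 0.180). Grm3 and Grm8 were the 2 members whose groups did not overlap, and 2.94% of all transcripts above 0 had groups that did not. The size of the Grm3 difference depends on the pseudocount: voom, without one of 1 FPKM, put Grm3 at 0.89 ± 0.49 on a log2 scale of reads. The summed FPKM of the glial markers, given below for cells that can also express Grm3, overlapped between the groups. In pairs A, B and C it was 74.7, 62.02 and 95.7 FPKM in vehicle and 72.3, 53.8 and 90.0 FPKM in Chrdl1 libraries. Most of this sum came from Glul (glutamine synthetase), so its direction says little of the other glial markers. Glul was at 71.02, 58.9 and 82.5 FPKM in vehicle and 68.95, 51.5 and 76.8 FPKM in Chrdl1 libraries. Gja1, a gap junction protein, was lower with Chrdl1 in pairs A and B but not in pair C (4.72 FPKM in vehicle, 4.82 FPKM in Chrdl1). Aqp4 was at 0 in 5 of the 6 libraries, while Gja1 was at 1.59 to 4.82 FPKM. The part of glial cells in the Grm3 value was not tested.

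**Figure D3:**
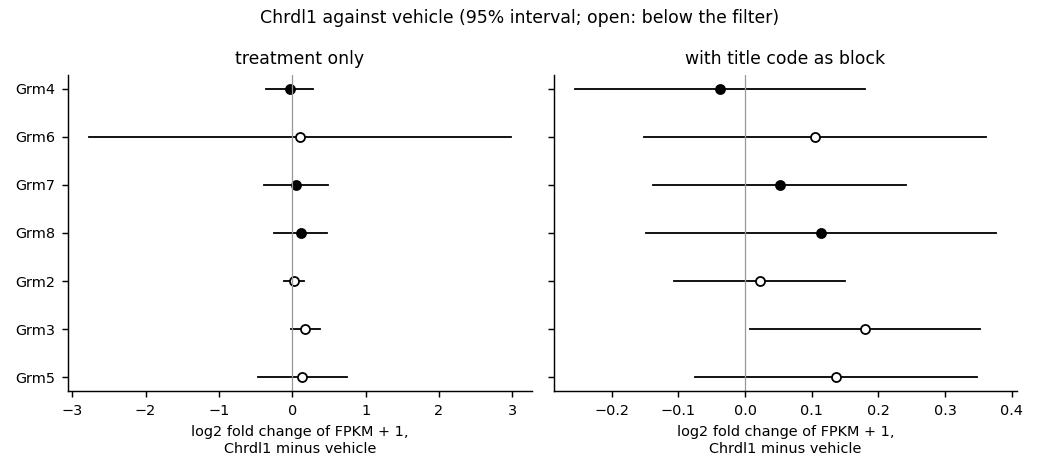
Log2 fold change of FPKM + 1, Chrdl1 minus vehicle (horizontal axis), of the 7 receptor genes with treatment as the only term (left) and with the title code as a block (right, narrower axis); lines are 95% intervals and open points are genes below the filter. All intervals on the left include 0, and on the right that of Grm3, 0.0068 to 0.35, lies just above it without passing the adjusted threshold.

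The difference between title codes was tested after the values had been seen, with limma on log2(FPKM + 1) and terms for code and treatment, over 14171 transcripts. In pair C against the mean of pairs A and B, 16.9% of all transcripts were called higher and 5.99% lower. Of the 7 members, 2 were called higher and 1 lower. Grm6 was higher by 3.11 ± 0.11 (SE; adjusted p = 0.000265 by limma) and Grm5 by 0.62 ± 0.090 (adjusted p = 0.00832). Grm7 was lower, at -0.42 ± 0.084 (adjusted p = 0.0223), and Grm2, Grm3, Grm4 and Grm8 were not called. Between pairs B and A limma called 0 of the 7, and 0 had an unadjusted p under 0.05, where 5.65% of transcripts were called higher and 8.36% lower.

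Most, but not all, of the ON bipolar cell markers used moved with Grm6. Of 10 markers listed, 7 were used and 5 were called higher in pair C. Gnb3, a G-protein beta subunit of ON bipolar cells and cones, was at 86.8 FPKM (vehicle) and 78.7 FPKM (Chrdl1) in pair C and at 2.63 to 6.40 FPKM in the other 4. Trpm1, the channel that mGluR6 signalling closes, was at 4.52 and 5.69 FPKM against 0.248 to 0.508 FPKM, and Nyx, encoding nyctalopin of the same complex, at 4.52 and 5.17 FPKM against 0.423 to 0.610 FPKM. Cabp5, a calcium-binding protein of bipolar cells, was at 3.30 and 2.73 FPKM against 0.0760 to 0.270 FPKM. Pcp2 and Gng13 were not called, with 4.90 to 7.45 and 1.18 to 3.67 FPKM over all libraries. The list summed to 11.3 to 133 FPKM in vehicle and 12.7 to 121 FPKM in Chrdl1 libraries, and 0 of the 7 genes were at 0 in all libraries. Grm6 FPKM stood at 113% to 186% of Trpm1 FPKM in pairs A and B, and in pair C at 251% with vehicle and 224% with Chrdl1. The part of these cells in the Grm6 value was not tested, and in such bulk RNA more cells of a type and more RNA per cell cannot be told apart.

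**Figure D4:**
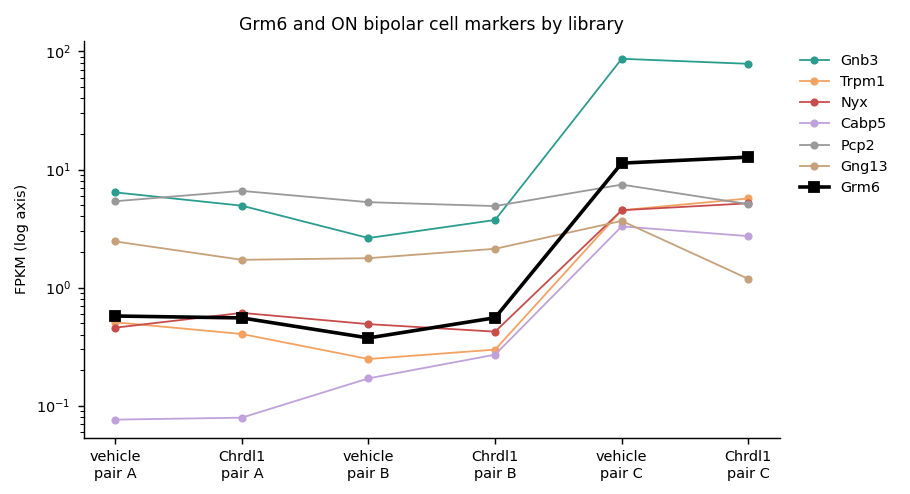
FPKM (vertical axis, log scale) of Grm6 (black squares) and 6 ON bipolar cell markers (coloured points) in the 6 libraries, grouped by pair; lines only join the points of a gene. Grm6, Gnb3, Trpm1, Nyx and Cabp5 step up together in both libraries of pair C, and Pcp2 and Gng13 do not.

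The other cell type lists differed in how they stood in pair C, and their counts are to be read against the 16.9% of all transcripts called higher there. Of 8 photoreceptor markers 6 were called higher, led by Crx, a photoreceptor and bipolar cell factor, at 44.4 and 45.5 FPKM in pair C and 2.15 to 4.88 FPKM elsewhere. Of 8 amacrine cell markers 5 were called higher, although the one with the highest level, Gad2, a GABA-synthesizing enzyme, was not (-0.071 ± 0.064). The amacrine list summed to 76.7 (vehicle) and 79.9 FPKM (Chrdl1) in pair C. In the same order it summed to 80.2 and 77.2 FPKM in pair B and to 66.5 and 64.2 FPKM in pair A. Of 9 astrocyte and Müller glia markers 6 were called higher, with Slc1a3, a glial glutamate transporter, at 5.10 and 5.95 FPKM against 0.417 to 1.41 FPKM. Most of their summed FPKM came from Glul (glutamine synthetase). Of 8 microglial markers 6 were called higher. This list summed to 135 FPKM (vehicle) and 121 FPKM (Chrdl1) in pair C, and to 107 and 92.0 FPKM in pair A. In pair B it was far lower, at 12.8 and 6.57 FPKM. Of 7 oligodendrocyte lineage markers 1 was called higher. The photoreceptor, microglial, and astrocyte and Müller glia lists had their highest sums in the libraries of pair C. Grm6 and Grm5 were also highest there, and the part of these cells in either was not tested.

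RGC markers moved in both directions. Of the 11 used, 1 was called higher in pair C, Thy1, a surface glycoprotein of RGCs (0.60 ± 0.07), and 3 lower. The lower ones were Pou4f2 and Isl1, transcription factors of RGCs, and Nefm, a neurofilament subunit. Pou4f2 was at 27.2 and 24.6 FPKM in pair C and 28.4 to 38.0 FPKM elsewhere. The median over the list was -0.18, against 0.045 over all transcripts. Grm7 was also lower in pair C, and the part of RGC RNA in its difference was not tested.

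**Figure D5:**
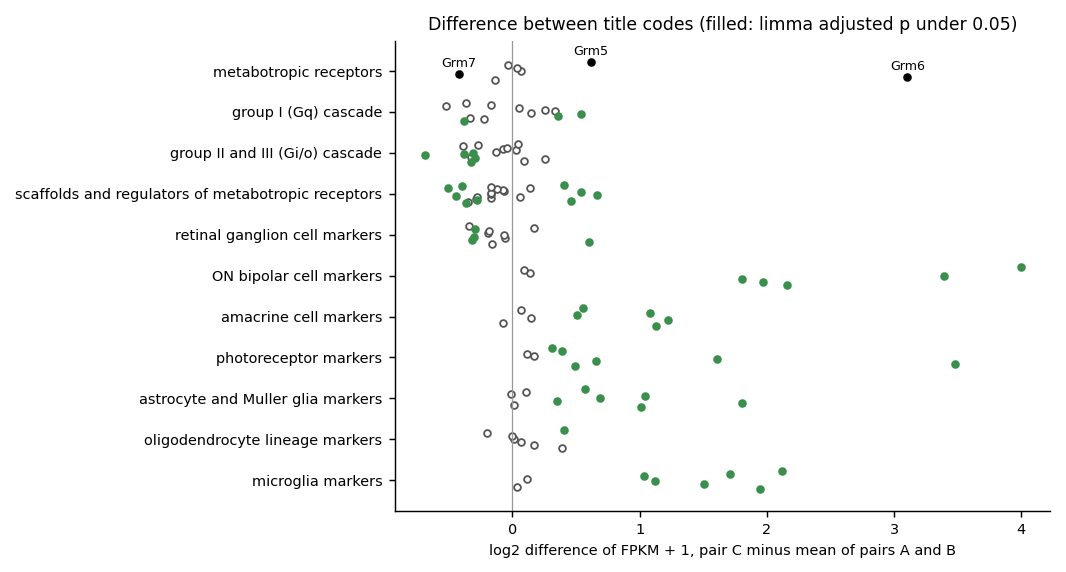
Log2 difference of FPKM + 1, pair C minus the mean of pairs A and B (horizontal axis), of each receptor gene (black, top row) and of each gene of the pathway and cell type lists (green); filled points had a limma adjusted p under 0.05. Grm6, at 3.11, lies among the ON bipolar cell markers, of which 5 of 7 were called higher.

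The genes with patterns most like that of a member were found by the root mean square difference of mean-centred log2(FPKM + 1) over the 6 libraries. For Grm7, the only member named by the rule, these were Sidt1 (0.0325), Gprc5c (0.0362) and Eya2 (0.0388), among 10390 tested transcripts with a median of 0.268. All 3 were lower in both libraries of pair C than in the other 4, as Grm7 was. For Grm6, added after its values were seen, they were Asic4 (0.110), of the acid-sensing channel family, Kif19 (0.167), a kinesin, and Abca4 (0.192), the retinoid transporter of photoreceptors, among 10412 transcripts with a mean of at least 1 FPKM and a median of 1.45. Asic4 was at 24.0 and 21.5 FPKM in pair C and at 1.47 to 1.92 FPKM elsewhere. With 6 libraries such likeness mostly records the step between codes.

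Downstream of group I receptors, genes of the Gq cascade were present and none was called for Chrdl1. Of 12 listed genes 10 passed the filter, 0 were called with or without the block (limma, with 0 at an unadjusted p under 0.05 without it), and 7 were positive and 3 negative, with a median log2 fold change of 0.033 against -0.028 over all tested transcripts. Gnaq, the alpha subunit of Gq, was at 60.1 ± 12.2 FPKM in vehicle and 59.9 ± 7.58 FPKM in Chrdl1 libraries (SD, n = 3 each). Prkcb, a protein kinase C, was at 57.7 ± 5.80 and 56.9 ± 3.75 FPKM, and Plcb4, a phospholipase C, at 30.9 ± 2.95 and 32.7 ± 3.74 FPKM. Prkca, another protein kinase C named for its unadjusted p, had a log2 fold change of 0.20 ± 0.27 (limma unadjusted p = 0.468). Gnaq, Prkcb and Plcb4 were all at higher FPKM than Grm5 in each library.

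In the Gi/o cascade shared by groups II and III no gene passed the test for Chrdl1. Of 16 listed genes 15 were used and passed the filter, 0 were called with or without the block (limma, with 0 at an unadjusted p under 0.05 without it), and 7 were positive and 8 negative, with a median log2 fold change of -0.0030. Gnao1, the alpha subunit of Go and the partner of mGluR6 in ON bipolar cells, was at 170 ± 21.8 FPKM in vehicle and 175.0 ± 21.7 FPKM in Chrdl1 libraries. The inhibitory subunits Gnai2 and Gnai1 were at 102 ± 16.8 and 74.1 ± 11.4 FPKM in vehicle and 95.8 ± 13.2 and 76.9 ± 11.7 FPKM in Chrdl1 libraries. The smallest unadjusted p values were those of the adenylyl cyclases Adcy6 and Adcy8, at 0.089 ± 0.11 and -0.10 ± 0.13 (log2), and of Gnai3, at -0.095 ± 0.13. Between codes, 16.9% of all transcripts were called higher in pair C and 5.99% lower. Of the 15 genes, 0 were called higher there and 5 lower (Gnai1, Gnao1, Adcy1, Adcy2 and Adcy3), at -0.69 to -0.30. Gnao1 was at 146 to 196 FPKM over all libraries, and the part of ON bipolar cells in its value was not tested.

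Scaffolds and regulators of the receptors were not called for Chrdl1. Of 22 listed genes 21 were used and 20 passed the filter, 0 were called with Chrdl1 with or without the block (limma, with 0 at an unadjusted p under 0.05 without it), and 10 were positive and 10 negative, with a median log2 fold change of -0.0090. Ncdn (neurochondrin, also called norbin, a binder of mGluR5) was at 154 ± 31.2 FPKM in vehicle and 143 ± 37.0 FPKM in Chrdl1 libraries. Rgs4, which speeds the shutdown of G proteins, was at 115 ± 17.1 and 112 ± 24.6 FPKM, and Cabp1, a neuronal calcium-binding protein, at 73.1 ± 17.9 and 70.7 ± 8.01 FPKM. Pick1, a PDZ protein that binds the tail of mGluR7, had the smallest unadjusted p of the list, with a log2 fold change of -0.14 ± 0.11 (limma unadjusted p = 0.249), and was lower in all 3 pairs. Rgs2, of the same family as Rgs4, was at -0.17 ± 0.17 and lower in all 3 pairs (limma with the block, unadjusted p = 0.048, adjusted p = 0.872), and the scaffold Homer2 at 0.17 ± 0.19. In pair C, where 16.9% of all transcripts were called higher and 5.99% lower, 4 of the 21 were called higher (Homer3, Grasp, Elfn1 and Cabp1) and 5 lower (Homer1, Shank1, Grip1, Arrb1 and Rgs4).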

How the data were processed

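Polyadenylated RNA was measured in 3 Chrdl1 and 3 vehicle libraries. Libraries were stranded mRNA preparations, per the labels' protocols. FastQC was used with STAR 2.4.0k, build rn6 and HOMER 4.8.3, per the submitters' processing notes; for the annotation release, read filters and strand setting nothing is stated in those notes or the labels. The authors deposited FPKM values with transcript lengths in 1 table, and coordinates are printed as it gives them.

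Read totals were recovered with Python 3.11.15 (numpy 2.4.6, pandas 2.3.3) from FPKM times length. In each library 100.0% of values above 0, to 1 decimal and within the 0.0005 FPKM of rounding, were whole reads, where 3.48% to 5.14% would be by chance. Intervals on reads cover counting error only.

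Limma 3.58.1 in R 4.3.3 (lmFit, eBayes with trend, two-sided, Benjamini-Hochberg over all tested transcripts) was run on log2(FPKM + 1). Treatment was the only term. The fit was tested on simulated data drawn without differences between title codes, so that test does not cover the spread between codes seen here. Same-code libraries deviated together (correlations across genes of 0.82, 0.86 and 0.84), so the code was taken to pair them. Alternatives were the block, pseudocounts of 0.1 and 0.5, filters, quantile normalization, voom, robust eBayes and leaving out libraries or pairs. TMM scaling was not run.

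The members and the gene lists were chosen with earlier results of these data known. Named genes were the 7 members, 3 of each pathway list by mean FPKM and 3 by smallest unadjusted p, 3 most like the highest member of each receptor group that passed the filter, and 2 per cell type list by mean FPKM. Others named, such as Trpm1, Nyx, Cabp5, Thy1 and the genes called between codes, were chosen after their values were seen. A few genes counted in the lists are not reported here by name.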

Additional observations from a re-analysis of the deposited data

How the results depend on the processing

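No receptor was called for Chrdl1 against vehicle under any of the alternatives run. The number of transcripts called over the whole table was 0 in the fit with treatment only. It was also 0 with the replicate block, voom, the other pseudocounts, filters, robust eBayes or quantile normalization. Leaving out libraries or pairs gave 0 to 34 with the filter. The calls arose only in fits with the block on 2 pairs, without pair A (25) or B (34). Those fits rest on few libraries, and without the filter both called 0 of 14171 transcripts. With the replicate block the log2 fold changes were as before and no call changed (Grm7 0.052, Grm4 -0.038, Grm8 0.11, Grm6 0.11, Grm3 0.18). Leaving out libraries or pairs gave -0.027 to 0.076 for Grm2, 0.093 to 0.24 for Grm3, -0.11 to 0.037 for Grm4, -0.12 to 0.29 for Grm5, -0.94 to 1.13 for Grm6, -0.066 to 0.22 for Grm7 and 0.053 to 0.17 for Grm8. Of the Grm2 values, the single libraries left out gave up to 0.062, and the fits with the block gave -0.00061 without pair A and -0.010 without pair B. With 1 library gone the groups hold unequal codes, and a turn of sign there cannot be told apart from a code difference. Grm4 also turned without pair C and without the block (0.023), and Grm6 with voom (-0.023). The group III share difference ran from -1.78 to -0.735 points. Between codes the calls of Grm6, Grm5 and Grm7 kept their direction and side of the threshold with voom, a pseudocount of 0.1 and quantile normalization, at 2.93 to 4.54, 0.33 to 1.74 and -0.58 to -0.46 (log2). Under quantile normalization Grm2 (-0.043) and Grm8 (-0.27) turned without a call, and transcripts called in pair C were 1489 higher and 1636 lower, against 2390 and 849 before. The cause was not tested. Few reads limit Grm2, Grm3 and Grm5.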
